A study of Curcuma longa with 2 samples.

Results

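Small RNA from nanoparticles of turmeric (Curcuma longa) root was sequenced in 2 libraries. The plant miRNA families miR160, miR164, miR167 and miR393, which act on the auxin pathway, are described here. A sequence was taken as a member where a name in the deposited table held one of these 4 numbers, whatever plant the name came from. This gave 12 of the 167 sequences with reads, on 16 of 266 lines of the table, and all 12 members had reads. Both libraries are replicates of 1 group, labelled as turmeric root nanoparticles, with no control and no second condition. Nothing in the labels says whether they came from separate preparations, so their spread may be technical. RNA inside the particles and RNA that came down with them cannot be told apart. Listed reads summed to 96386 for library 1 and to 72196 for library 2, which are totals of the list and not the sequencing depth. Another 12 lines of the table are not analysed here and may hold members, so each family is described from the remaining entries.

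Auxin enters its pathway through receptors of the TIR1/AFB family, which lead repressor proteins to degradation and so free the auxin response factors (ARFs) that switch genes on or off. In Arabidopsis, miR393 targets the receptor transcripts, miR167 targets ARF6 and ARF8, which are activators, and miR160 targets ARF10, ARF16 and ARF17, which are repressors. miR164 targets NAC genes, among them CUC1 and CUC2, which set organ boundaries, and NAC1, which passes on auxin signals in lateral roots. A plant miRNA is cut from a hairpin precursor as a duplex of a 5p and a 3p strand, and one of them is usually kept in much larger amount.

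The sequences that held most of the reads are shown first, because the families differ in how closely they match registered miRNAs. Each is written 5′ to 3′ as in the table, with T for U, and capitals mark bases 2 to 8, the seed. The names are miRBase names of other plants. A substitution gives the registered base, its position from the 5′ end and the base in the listed sequence. The turmeric hairpin does not hold that base in every case, as described below. These forms of the 4 families, in miR160 not in order of reads, were:
miR160, identical to sorghum miR160a: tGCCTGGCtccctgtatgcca
miR160, 18 bases, named for melon MIR160c with A13G and A17G: aGCCATGCatgtgtaagt
miR164, rice miR164c with G17A: tGGAGAAGcagggtacatgca
miR164, maize miR164g-3p with C20A: cACGTGCTccccttctccaac
miR164, rice miR164d with G19T and C20T: tGGAGAAGcagggcacgtttt
miR167, rice miR167d-5p with 1 more base at the 3′ end: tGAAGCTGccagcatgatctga
miR167, rice miR167a-5p with A21C: tGAAGCTGccagcatgatctc
miR167, identical to rice miR167a-5p: tGAAGCTGccagcatgatcta
miR393, rice miR393a with 1 more base at the 5′ end: tTCCAAAGggatcgcattgatc

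The 4 families together had 1227 reads in library 1 and 896 in library 2, which was 1.26% ± 0.023 (SD, n = 2) of the listed reads. miR164 stood highest, followed by miR167, miR160 and miR393, in both libraries. By mean share they held ranks 12, 17, 20 and 30 among the 43 families with reads. miR164 stood 9.17-fold above miR393 on average. All 6 pairs of families kept the same direction in both libraries, with a mean log2 ratio larger than its SD. The place of miR160 above miR393 rests on the 18-base entry, without which miR160 held 0.0189% and miR393 0.0707%. The order carries no p-value: with 2 libraries, the smallest p of an exact two-sided permutation of signs is 0.5.

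miR164 had 609.5 reads in library 1 and 478 in library 2. Its share was 0.632% in library 1 (exact Clopper-Pearson 95% interval 0.584% to 0.685%) and 0.662% in library 2 (0.604% to 0.724%). The deposited reads hold fractions. The intervals cover counting error alone: the protocol names no molecular identifiers, so a read is not an independent molecule. miR167 had 332.5 reads and 244 reads, at 0.345% (0.308% to 0.383%) and 0.338% (0.297% to 0.383%) of libraries 1 and 2. miR160 had 217 reads in library 1 and 123 in library 2, at 0.225% (0.196% to 0.257%) and 0.170% (0.142% to 0.203%). miR393 had 68 and 51 reads, and its shares of 0.0705% and 0.0706% were the closest of the 4 families. For all 4 families the intervals of both libraries overlapped, those of miR160 only just.

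**Figure D1:**
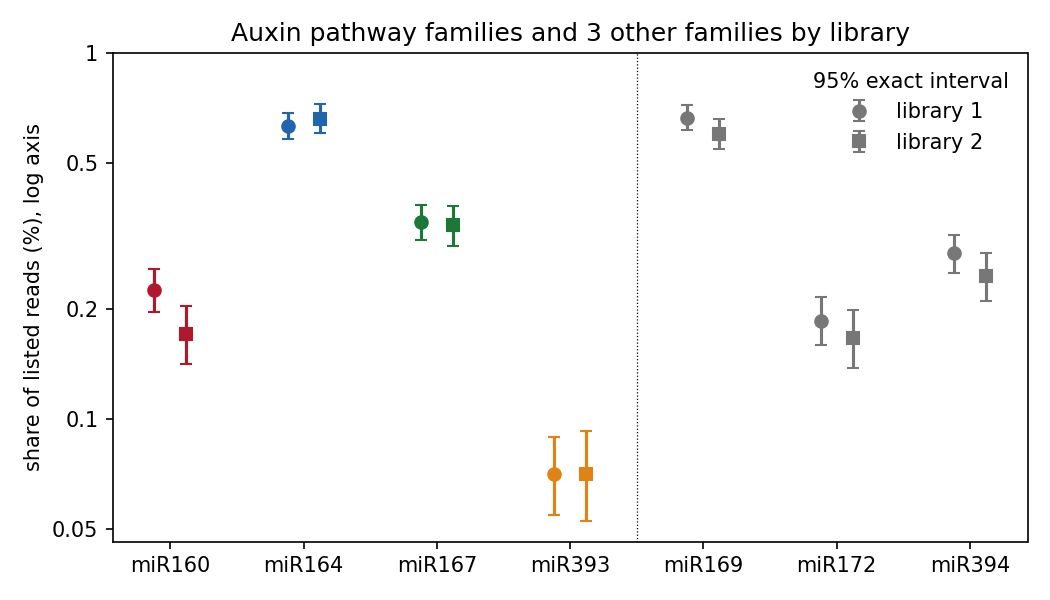
Share of listed reads (percent, log axis) of the 4 auxin families, left of the dotted line, and of miR169, miR172 and miR394, right of it. Circles are library 1, squares library 2 and bars exact 95% intervals of counting error; miR164 lies beside miR169, and miR393, at about 0.071%, lies below all the others shown.

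Within the 4 families, miR164 supplied 51.5% ± 2.60 of the reads, miR167 27.2% ± 0.094, miR160 15.7% ± 2.80 and miR393 5.62% ± 0.11 (SD, n = 2 each). miR164 exceeded miR167 by 1.83-fold in library 1 and 1.96-fold in library 2. miR167 exceeded miR393 by 4.89-fold and 4.78-fold. The 2 families of ARF regulators were 1.53-fold apart in library 1 and 1.98-fold in library 2, with miR167 above miR160. Most miR160 reads lay on an 18-base entry described below, and over the form identical to miR160a alone, miR167 was 12.3-fold and 34.9-fold higher. Among other families that target regulators, miR169 held 0.634% ± 0.046, miR394 0.264% ± 0.027 and miR172 0.176% ± 0.014 (SD, n = 2 each). 2 other families act on auxin signalling, miR390, through TAS3 transcripts on ARF genes, and miR847, which targets IAA28 in Arabidopsis. Neither was listed among the entries used here.

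The receptor regulator miR393 was present as 1 sequence, a 22-nt form that starts 1 base before the registered rice miRNA. It was listed at 2 loci with equal values, 34 reads each in library 1 and 25.5 each in library 2. Its shares did not differ beyond counting error (exact binomial test with Benjamini-Hochberg adjustment, adjusted p = 1, fold 1.00). In Arabidopsis, miR393 of this length is known to start the production of secondary small interfering RNAs from receptor transcripts. The form listed here has its additional base at the 5′ end, so its seed lies 1 base earlier than that of the registered rice miRNA. Equal length does not make it the same form, and what it does was not tested. Both placed hairpins hold all 22 bases without a mismatch.

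miR167, which targets the activator ARFs, was present as 5 sequences that all start with U on the 5p arm. The first 20 bases, tgaagctgccagcatgatct, are shared by 4 of them, which differ only in how they end. The 22-nt form that ends in GA led with 184 reads in library 1 and 145 in library 2. The 21-nt form that ends in C followed with 122 and 84 reads, and the 21-nt form that ends in A had 16 and 12. The 20-nt form with no further base had 5.5 and 3 reads. This order of the 4 forms was the same in both libraries. The 22-nt form held 55.3% of the family in library 1 and 59.4% in library 2, the C form 36.7% and 34.4%, and the A form, which is the registered rice miR167a-5p, 4.81% and 4.92%.

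By their first names only the A form of miR167 is identical to a registered miRNA. The C form is also listed as grapevine miR167c and the 22-nt form equals the registered asparagus miR167b that the table quotes, so that 97.8% ± 1.36 (SD, n = 2) of the miR167 reads lay on registered sequences by any name. The forms were placed by their letters, so that their ends match their hairpins by construction. The hairpins of the 22-nt form continue the shared 20 bases with GA at both of its loci, those of the C form with CA at both, and that of the A form with AG. The 20-nt form is placed on a further hairpin that continues with TA.

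The remaining miR167 sequence carries G2C relative to the 22-nt form, a change inside the seed. It is given here with its letters because no other member has a substitution there: tCAAGCTGccagcatgatctga. Library 1 held 5 reads of it, and in library 2 it was listed at 0. At its ratio to the 22-nt form in library 1, 3.94 reads would fall in library 2. With fewer than 10 reads in total, its difference between the libraries was not tested. It was matched to a registered miRNA only and has no placed hairpin.

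miR160, which targets the repressor ARFs, was split over 2 unlike entries. The form identical to sorghum miR160a had 27 reads in library 1 and 7 in library 2, which are shares of 0.0280% and 0.00970%. This was 2.89-fold higher in library 1, the widest gap among the 10 members tested, and it did not pass the test (exact binomial test, unadjusted p = 0.00879, adjusted p = 0.0585). The other entry, 18 bases long, had 190 and 116 reads and so held 87.6% and 94.3% of the family.

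The 18-base entry does not resemble miR160 itself. It is named for a stretch of the melon MIR160c hairpin outside the registered miRNA, bases 84 to 101 of 102, and differs from that stretch by A13G and A17G. On the turmeric hairpin of miR160a, its best place leaves 9 of 18 bases unmatched. Its letters are known from the start of plant 18S ribosomal RNA, which is background, as no ribosomal sequence was compared here. Without this entry miR160 held 0.0189% ± 0.013 (SD, n = 2) and ranked below miR393, so the family's place depends on it.

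miR164, which targets NAC genes, spread its reads more evenly over the sequences used here than miR160 and miR167 did. The rice miR164c form with G17A led with 235 reads in library 1 and 211 in library 2, followed by the 3p form with 189 and 144 and the miR164d form with 177.5 and 114. The remaining sequence, a maize miR164h-5p form with G13T, had 8 and 9 reads. The leading form held 38.6% of the family in library 1 and 44.1% in library 2. Of the 17 families with 3 or more sequences, 4 had a lower mean share on their leading form. In miR169, of like total abundance, 1 sequence held 93.8% and 94.9%.

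None of the 4 miR164 sequences used here is identical to a registered miRNA quoted in the table. The 3 5p forms share their first 12 bases, tggagaagcagg, and with them the seed, and differ from one another after that. The 3p strand took 31.0% of the miR164 reads in library 1 and 30.1% in library 2. The deposited hairpin of this 3p form also marks a 5p strand, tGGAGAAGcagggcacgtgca, which is not among the entries used here, so the ratio of its strands is not given.

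**Figure D2:**
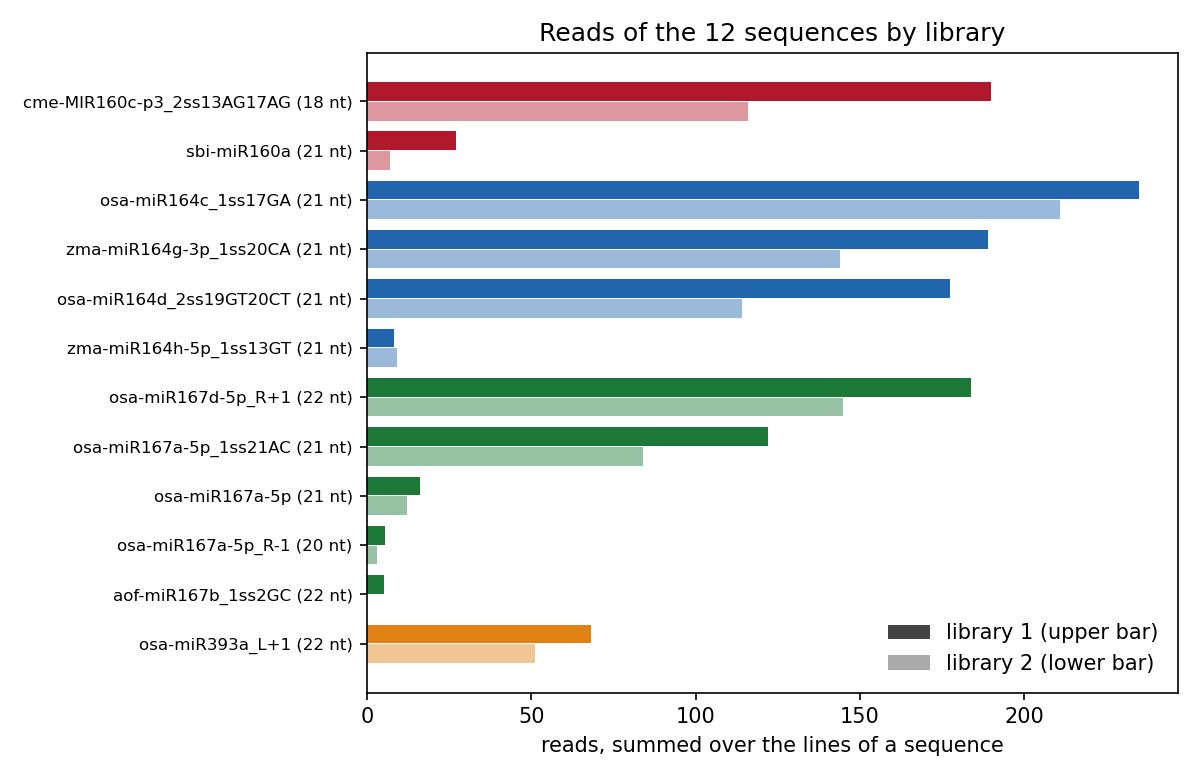
Reads of each of the 12 sequences, summed over the lines of a sequence, with library 1 as the upper, darker bar and library 2 as the lower, paler bar; colours are the families, and names are those of the table with the length in nt. miR164 has 3 forms above 100 reads in both libraries, miR160 is carried by its 18-nt entry, and miR393 by 1 form.

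Set against the other 155 sequences, the 4 families differed in length. The 22-nt sequences held 21.4% ± 0.66 of the reads of the 4 families and 5.17% ± 0.65 of the reads of all other sequences (SD, n = 2 each). With 1 line's value per sequence in place of the sum, an alternative added after seeing the data, these were 14.0% ± 0.13 and 7.54% ± 0.86 (SD, n = 2 each). The 22-nt member reads came from the leading miR167 form, its G2C form and miR393. The share of 21 nt was 64.0% ± 1.22 in the 4 families and 58.6% ± 0.70 elsewhere, and that of 20 nt was 0.39% ± 0.080 against 21.8% ± 1.89 (SD, n = 2 each). No member was longer than 22 nt, while 23 and 24 nt held 5.78% ± 0.38 and 7.23% ± 0.27 of the other reads (SD, n = 2 each), on 10 and 5 sequences. The absence of such lengths is not particular to the members: miR169, miR172 and miR394 had no form with reads above 21 nt. All reads of 18 nt in the families belonged to the MIR160c entry.

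**Figure D3:**
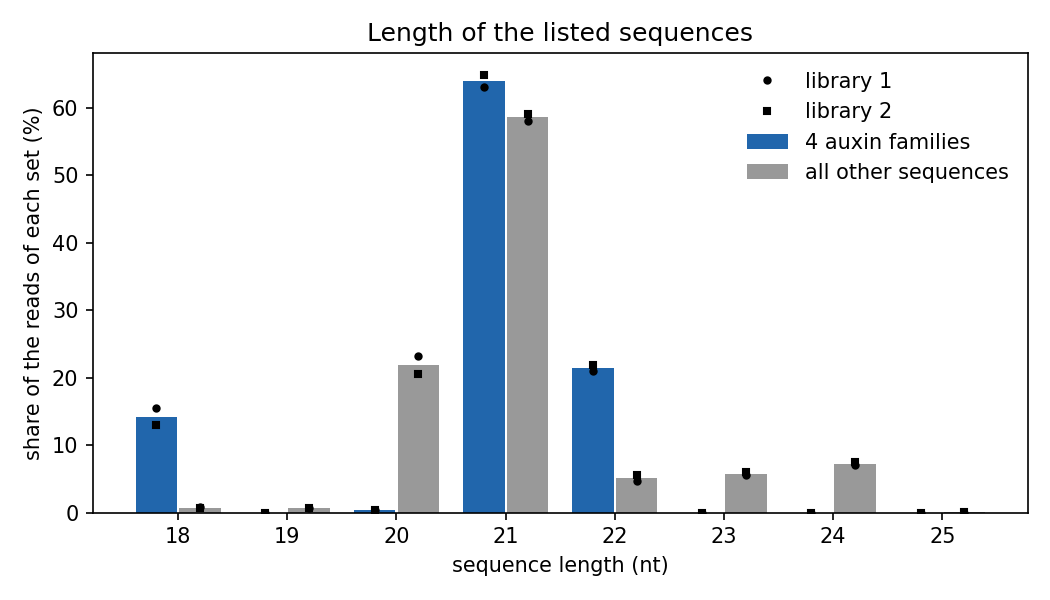
Share of the reads of each set by sequence length (nt), for the 4 auxin families (blue, left) and all other listed sequences (grey, right). Bars are means of 2 libraries, circles library 1 and squares library 2; 22 nt is at 21.4% in the auxin families and 5.17% elsewhere, and 20 nt at 0.39% and 21.8%.

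Of the reads of the 4 families, 70.0% ± 1.32 started with U, against 77.0% ± 1.22 elsewhere (SD, n = 2 each). By count of sequences the direction was opposite, with a first U in 10 of 12 members (83.3%) and 83 of 155 others (53.5%). The remaining member reads start with C, all from the miR164 3p form, or with A, all from the MIR160c entry. The 5p arm, taken from the first line of each sequence, held 70.0% ± 1.32 of the reads of the 4 families. It held 48.6% ± 0.69 of the other reads (SD, n = 2 each). The MIR160c entry was listed on both arms with equal reads and is counted as 3p, so the members' share depends on that choice. By first name, 2.81% ± 0.98 of the reads of the 4 families and 22.2% ± 0.18 of the others lay on sequences identical to a registered miRNA (SD, n = 2 each). Counted by sequence the direction was the other way, with 2 of 12 members (16.7%) and 16 of 155 others (10.3%) exact by first name. Forms with 1 substitution by first name held 47.8% ± 3.14 of the reads of the 4 families and 15.4% ± 0.27 of the others (SD, n = 2 each). In miR169, miR172 and miR394 together such forms held 88.6% ± 0.89 (SD, n = 2), so a high share is not particular to the 4 families. By the closest name or registered sequence quoted, exact forms were 28.1% ± 0.54 and 23.8% ± 0.16 of the reads (SD, n = 2 each), on 4 of 12 members and 21 of 155 others. Forms with 2 substitutions or on an unregistered arm by every name held 27.8% ± 3.03 of the reads of the 4 families, in the miR164d form and the MIR160c entry, and 30.5% ± 0.45 of the others (SD, n = 2 each). These shares are descriptions with no test. The 7 seeds of the 12 members occurred in none of the other sequences.

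Hairpins were the next point of comparison. The authors placed 15 of the 16 member lines on a genome, and each placed hairpin is deposited with its fold, free energy in kcal/mol and a minimal free energy index, which scales the free energy by length and GC content. Without the MIR160c entry, the 13 placed hairpins were 82 to 179 nt long by the authors' hairpin length, and 85 to 185 bases as the deposited sequence. They had free energies between -77.3 and -41 and indices between 0.7 and 1.2. The miRNA was paired over 18 to 21 of its bases in every one of them. The legend of the table lists a free energy of -15 or below and a length of 50 nt or more among its criteria for hairpins, and all 13 met both.

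The MIR160c entry was placed on stretches of 35 and 18 nt by the authors' hairpin length, with free energies of -8.3 and -4.1, and its 18 bases were paired at 11 and 7 positions. Neither met the criteria. Of the member lines, 2 of 15, or 13.3%, missed at least 1 of these limits, and of the lines of all other sequences 59 of 216, or 27.3%. The median index was 1 over member lines and 0.75 over the lines of the others. For miR169, miR172 and miR394 the median index was 1, 1.05 and 0.85. Of their 4 placed lines each, 0, 0 and 1 missed at least 1 of these limits.

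**Figure D4:**
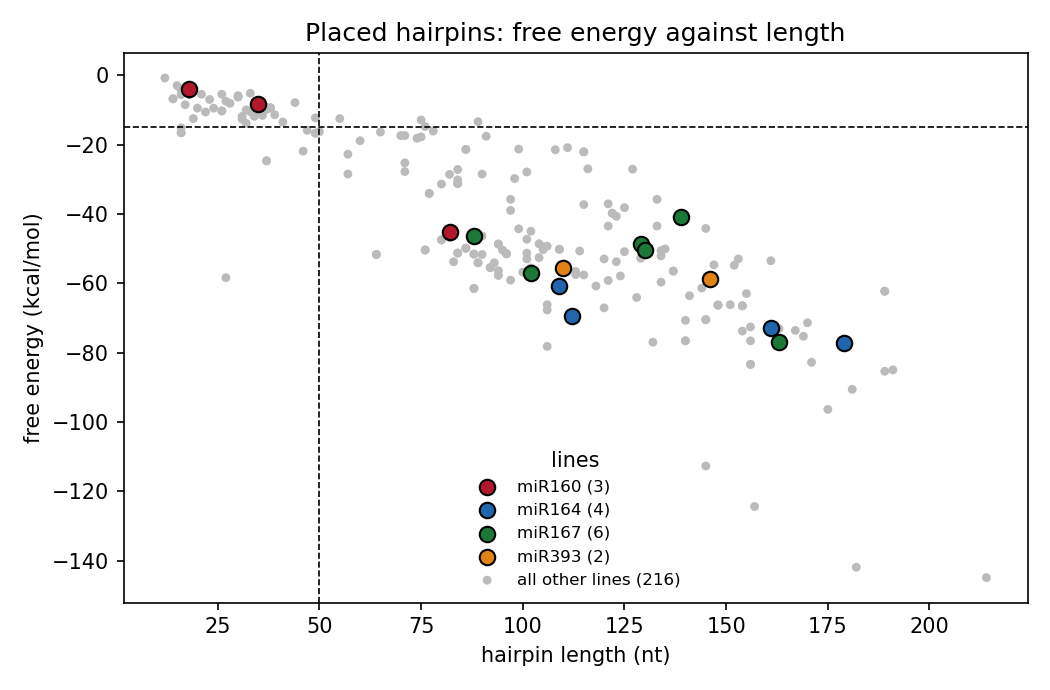
Free energy (kcal/mol) against hairpin length (nt) for each placed line with reads, coloured for the members and grey for all other lines. Dashed lines mark the limits of -15 kcal/mol and 50 nt in the table's legend; the 2 lines of the MIR160c entry lie at -8.3 and -4.1 in the upper left, and the other 13 member lines lie between -77.3 and -41.

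Of the 11 placed members, 9 were identical to their hairpin and 2 differed from it by 1 base. Among the other placed sequences, 107 of 147, or 72.8%, were identical. All members have registered names, and among the other placed sequences with such names 102 of 128, or 79.7%, were identical. This is close to the 81.8% of the members. The leading miR164c form differs from its own hairpin by G17A, the same base by which it differs from the rice miRNA. The miR164d form differs from its hairpin by G19T, while the base at its C20T position is the one the turmeric hairpin holds. The other placed forms named with substitutions are letter for letter those of their hairpin, among them C20A of the miR164 3p form and G13T of the miR164h form. Which assembly the placements refer to is not stated in the sources used.

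Next, 3 of the hairpins that met the limits are shown as the whole deposited sequence, with the listed miRNA in capitals. The miR160a hairpin, 85 bases on the plus strand of contig WXZB01032626.1 from 1127 to 1211, had a free energy of -45.1:
miR160a hairpin: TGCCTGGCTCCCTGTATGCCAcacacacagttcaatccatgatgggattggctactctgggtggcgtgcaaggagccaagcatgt
The hairpin of the miR164 3p form, 115 bases on the minus strand of contig WXZB01169433.1 from 327 to 441, had a free energy of -60.9:
miR164g hairpin: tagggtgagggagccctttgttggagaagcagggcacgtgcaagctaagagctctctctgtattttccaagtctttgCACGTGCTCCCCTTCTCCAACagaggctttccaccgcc
One of both miR393 hairpins, 152 bases on the plus strand of contig WXZB01231374.1 from 534 to 685, had a free energy of -58.8, and here capitals also mark the place of a second listed sequence on the 3p arm:
miR393 hairpin: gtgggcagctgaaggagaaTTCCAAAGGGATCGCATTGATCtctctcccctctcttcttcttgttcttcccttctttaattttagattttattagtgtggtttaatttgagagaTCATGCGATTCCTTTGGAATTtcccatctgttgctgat

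That second sequence is an entry with no registered name, predicted by the authors, and no member by its name: tCATGCGGttcctttggaatt. It had 13 reads in library 1 and 18 in library 2. This was 0.191 and 0.353 reads for each read of miR393, with the miR393 reads summed over both of its loci. The difference between its shares in the libraries did not pass the test (exact binomial test, adjusted p = 0.373). It differs from the printed hairpin by A8G and leaves 2 of its 21 bases unmatched on the other miR393 hairpin. In the deposited fold, 19 bases of the miR393 strand pair with it, and each strand ends 2 bases past the start of the other, the geometry known for a cut miRNA duplex. The miR164g hairpin gave the same 2-base ends for its 3p form and the unlisted 5p strand, with 17 pairs.

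A predicted entry lies on the miR164g hairpin too: cTCCCCTTctccaactgaggc. It starts 6 bases after the miR164 3p form on the same arm, shares 15 bases with it and differs from the hairpin by A16T. It had 7 reads in library 1 and 9 in library 2. The table gives this hairpin, with the same letters, starts 12 bases apart for the 2 entries, 315 and 327. No other entry with reads was listed on the letters of a member's hairpin. A further predicted entry lies on a hairpin of another contig that holds a miR164c-like strand: aGCTTCTCcaccatgcgcaac. The leading miR164c form differs from that strand by G17A, as it does from its own hairpin. The predicted entry lies on the 3p arm, differs from its hairpin by A17G and was read 13 times in library 1, against 7 in library 2 (exact binomial test, adjusted p = 0.867).

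The libraries were last compared by their reads, sequence by sequence. This compares these 2 libraries, not conditions. Of the 10 members with at least 10 reads in total, 0 passed an exact two-sided binomial test with Benjamini-Hochberg adjustment at 0.05, and 1, the miR160a form, had an unadjusted p below 0.05. Over all 153 sequences tested, 13.1% passed, 6.54% as higher in each library. The members' shares were within 2-fold of each other for 9 of 10, with a median gap of 1.13-fold, against 129 of 143 and 1.16-fold for the other sequences tested. Among members, 4 were higher in library 1 and 6 in library 2. By the same exact test, the leading miR164c form stood at 1.20-fold its library 1 share in library 2, with adjusted p = 0.287. The MIR160c entry stood at 1.23-fold its library 2 share in library 1, with adjusted p = 0.347 by the exact binomial test.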

How the data were processed

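Per the labels' protocols, total RNA was extracted with the miRNeasy Mini kit, made into TruSeq small RNA libraries and sequenced by Illumina HiSeq. CASAVA 1.8.4 and cutadapt 1.10 are named, with no role, in the submitters' processing notes. Entries are, per the file headers, matches to miRBase miRNAs and hairpins of other plants, with hairpins placed on a genome. The sources used here do not give the aligner, the miRBase release or the assembly. The deposited raw columns are expected counts of reads per line. The authors' normalized signal is 1 constant factor per library times these (0.508 and 0.923), so shares are the same. The minimal free energy index is a score computed by the authors.

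Of 278 lines below the header, 12 hold no entry here, and 266 lines with 186 sequences were used, 19 of them at 0 in both libraries. The table has 2 value columns that match no sample, and they entered no step. Reads were summed over lines of the same sequence, and the lines of the 4 members with several carried equal values. A family is that of the first line. No upper limit goes with a 0, as the smallest value above 0 was 2.5 reads. Shares are percent of listed reads. Tests rounded fractional reads (SciPy 1.17.1). The test was checked on simulated data. Member hairpins were searched ungapped, and pairs read from the deposited folds. The named sequences are the 3 leading ones of each family and those identical to a registered form by first name. The remaining members and the predicted entries were named after their values were seen. Members, lists and alternatives were chosen with earlier results of these data known. No gene annotation was used.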

Additional observations from a re-analysis of the deposited data

How the results depend on the processing

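Shares below are means over both libraries. With a single line's value per sequence, the 4 families together held 1.44%, miR164 0.958%, miR167 0.271% and miR393 0.0523%, 21 nt held 76.4% and 22 nt 14.0% of their reads, and 12 sequences of the table differed between the libraries. Without entries with 2 substitutions or on an unregistered arm by every name, the 4 families held 1.30%, miR160 0.0270%, miR164 0.685%, miR167 0.491% and miR393 0.101%, and miR160 fell below miR393. With only registered names in the total, the 4 families held 1.33%, miR164 0.686%, miR167 0.362% and miR393 0.0748%. Without rRNA- or tRNA-like entries in the total, these were 1.54%, 0.795%, 0.419% and 0.0867%, with miR160 at 0.243%, the MIR160c entry kept among its reads. Without the leading sequence of each family, the 4 families held 0.548%, miR160 0.0190%, miR164 0.382% and miR167 0.147%, miR393 had no sequence left, and 3 of 6 pairs of families were still ordered. With at least 10 reads summed, miR167 held 0.334%. Without the MIR160c entry, an alternative chosen after seeing the data, the 4 families held 1.08%, miR160 0.0189% and miR393 0.0707%, and miR160 against miR393 turned. By the closest of all names, 28.1% of the reads were exact. With sequences above 0 in both libraries, also chosen after seeing the data, 13 sequences differed in place of 20. In the 4 other settings of the library test that were run, 0 members passed, with 12 to 20 calls over the table. Settings that remove reads or shrink the total move shares by construction. Otherwise the cause was not tested. With single-line values the log2 ratio of library 1 over library 2 turned for 3 members that differ little, to 0.0062 for the miR164 3p form, 0.029 for the miR167 A form and 0.029 for miR393. Leaving out 1 library gave 1.24% to 1.27% for the 4 families, 0.170% to 0.225% for miR160, 0.632% to 0.662% for miR164, 0.338% to 0.345% for miR167 and 0.0705% to 0.0706% for miR393. It also gave 2.12% to 3.50% for exact forms, 63.1% to 64.8% for 21 nt, 20.9% to 21.9% for 22 nt and 69.1% to 71.0% for a first U. No paired analysis was possible because both libraries belong to 1 group.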
